A study of Mus musculus with 4 samples.

Results

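Genes of mitosis and the kinetochore were followed in maps of N6-methyladenosine (m6A) from day 6 mouse retinal organoids, before and after degradation of the m6A writer METTL3 was induced. They were chosen by name, as 48 of the 20001 genes under which the site tables list at least 1 site. All 48 had listed sites in every library. Together they carried 1961 and 1913 of the 335607 and 350462 sites of the untreated libraries, and 1329 and 1524 of the 220034 and 263069 sites of the dTAG13 libraries.

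Every library came from the Rx:GFP line, a retinal reporter line, with the degron FKBP12F36V-HA added to the C-terminus of the endogenous Mettl3 gene, grown in a medium that also held AGN. The small molecule dTAG13 directs proteins that carry this degron to the proteasome. The 2 untreated libraries (0 h, no dTAG13) therefore carry the degron too, and the 2 dTAG13 libraries differ from them by 8 h in 125 nM dTAG13 at day 6. The genotype label names another Mettl gene in 3 of the 4 libraries, whereas the series design names METTL3 for all, so the degron was taken to be on METTL3 throughout, which was not tested. The labels give all 4 libraries 1 batch and do not say whether the line is 1 clone or whether the replicates are separate cultures, so p-values measure only the spread between these libraries, which may be technical. The amount of METTL3 protein is not measured by these tables. As a check of the labelled tissue, all 8 genes of a retinal progenitor and eye field list (Rax, Pax6, Six3, Six6, Lhx2, Sox2, Nr2e1 and Sfrp2) were listed in all 4 libraries. So were all 5 pluripotency genes of a second list, 2 of 4 neuronal genes (Tubb3 and Stmn2), 1 of 5 mesoderm and endoderm genes (Sox17) and 1 of 5 lens and surface ectoderm genes (Krt18). Of the last pair of lists Cryab and Foxe3 were listed in 3 libraries, Gata4 in 2 and Foxa2 in 1, and T, Mesp1, Cryaa and Krt8 in none of the 4. A gene that is not listed has no called site, which does not show that it is not expressed.

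Mitosis separates duplicated chromosomes. Kinetochores assembled on centromeres bind spindle microtubules, the spindle checkpoint delays anaphase until attachment is complete, and CDK1 with cyclins and the Aurora and Polo kinases drive the steps, before cytokinesis divides the cell. In the developing retina these genes mark dividing progenitors. m6A is placed on mRNA largely by the METTL3-METTL14 complex and is known to influence mRNA stability, splicing and translation. GLORI reads it base by base: nitrous acid with glyoxal converts unmethylated adenosine to inosine, which is sequenced as G, while m6A stays A. The methylation level of a site is the share of A, in percent, in the A and G reads that cover it. A site was listed by the authors with at least 15 such reads, at least 5 A reads, a level of at least 10% and an adjusted p of their own of at most 0.00401, so a site absent from a table may be unmethylated, below these limits or uncovered.

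Many mitotic genes share promoter elements: the CHR, bound by the DREAM and MuvB complexes, and the CCAAT box, bound by NF-Y. RefSeq promoters of build GRCm38.p6, from 250 bases before to 50 after the annotated start, were matched by symbol for 42 of the 48 genes, which gave 45 promoters. The letters searched for the CHR were TTTGAA, its reverse complement TTCAAA, and TTCGAA, and those for the CCAAT box were CCAAT and ATTGG, so both strands are covered and no CHR form contains a CCAAT form. A CHR form was present in 37 of 45 member promoters (82.2%) against 19.2% of all 32851 promoters of the same length, and a CCAAT form in 34 (75.6%) against 37.4%. Both were present in 32 (71.1%) against 7.52% of all promoters. Of the 104 promoters of 90 other mitosis genes, 35.6% held a CHR form and 53.8% a CCAAT form. These counts are a description of genes picked for their role, and a match is not a binding site. Upstream sequences are shown for 3 genes whose coverage is described below (Cdc20, Ncapd2, Top2a) and for 2 with a site at a lower level after dTAG13 (Smc2, Knstrn). Each is the 150 bases before the start, 5′ to 3′ on the gene's strand, with CHR and CCAAT forms in capitals.
Cdc20 (GRCm38.p6 chr4:118437344-118437493, minus strand): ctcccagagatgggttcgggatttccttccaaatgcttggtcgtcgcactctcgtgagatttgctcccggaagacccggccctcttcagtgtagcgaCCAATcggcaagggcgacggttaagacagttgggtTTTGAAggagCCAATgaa
Ncapd2 (GRCm38.p6 chr6:125191587-125191736, minus strand): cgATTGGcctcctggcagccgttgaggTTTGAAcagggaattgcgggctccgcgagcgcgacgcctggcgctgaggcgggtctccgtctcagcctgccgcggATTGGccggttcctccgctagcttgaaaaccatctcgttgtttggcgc
Top2a (GRCm38.p6 chr11:99024190-99024339, minus strand): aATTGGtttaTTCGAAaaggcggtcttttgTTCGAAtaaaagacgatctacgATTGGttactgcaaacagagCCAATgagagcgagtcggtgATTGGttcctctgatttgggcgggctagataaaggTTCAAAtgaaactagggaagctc
Smc2 (GRCm38.p6 chr4:52439071-52439220, plus strand): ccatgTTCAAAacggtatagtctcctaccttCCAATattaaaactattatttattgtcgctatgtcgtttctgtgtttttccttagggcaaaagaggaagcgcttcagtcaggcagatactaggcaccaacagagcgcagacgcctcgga
Knstrn (GRCm38.p6 chr2:118813853-118814002, plus strand): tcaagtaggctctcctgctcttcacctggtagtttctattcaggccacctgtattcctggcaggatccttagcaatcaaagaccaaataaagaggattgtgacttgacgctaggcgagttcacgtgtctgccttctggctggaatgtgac
Cdc20 has its CHR form next to the start between a pair of CCAAT boxes, Top2a carries 3 CHR forms and 4 CCAAT forms in this window, and Knstrn has none of these letters here. In 31 of the 37 promoters with a CHR form, the nearest lay within 50 bases of the start. The CHR letters were found in all 5 matched chromosome structure genes, and in no promoter of Birc5, Ccnb1, Cenpe, Knstrn, Mad2l1, Nuf2, Nusap1 or Plk4.

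The first comparison asked whether individual adenosines of these genes lost methylation with dTAG13. Across the whole map, in and outside annotated genes, 2321 sites that every table lists, each time with 20 reads or more, could be tested. Inside genes, before this limit on reads, 1219 sites were listed in all 4 libraries, so the background holds many sites outside genes. The test was a quasi-binomial model of A and G reads whose spread was moderated over all sites. Of the 2321 sites 53 passed at a Benjamini-Hochberg adjusted p under 0.05 (2.28%), 51 of them lower with dTAG13. Among the 2321, 8 were in the mitosis genes, in 7 genes, and 3 of these passed, all lower. Because a site must stay at 10% or more in both dTAG13 libraries to be tested at all, losses that went below 10% are outside this test.

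Arhgap11a belongs to the cytokinesis genes. Its site at chr2:113663918 on the minus strand was read as A in 100% of 87 reads and 98.6% of 219 reads without dTAG13, and in 35.4% of 79 and 33.3% of 424 reads with it. Nearly every transcript read there was methylated before treatment and about 1 read in 3 after it, with no overlap between the groups. The untreated mean of 99.3% ± 0.97 compares with 34.3% ± 1.55 after treatment (SD, n = 2 each), and the adjusted p of the quasi-binomial model was 0.00700.

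Knstrn encodes a spindle and kinetochore protein that helps chromosomes align. At chr2:118665014 on the plus strand its level was 73.4% of 271 reads and 72.6% of 263 reads in the untreated libraries. In the dTAG13 libraries it was 11.0% of 109 and 10.6% of 274 reads, just above the listing limit. The fall of 62.2 points, from 73.0% ± 0.57 to 10.8% ± 0.30 (SD, n = 2 each), passed the quasi-binomial model at an adjusted p of 0.00700.

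Smc2 encodes a core ATPase subunit of condensin, which compacts mitotic chromosomes. Its site at chr4:52486679 on the plus strand stood at 42.4% of 165 and 43.8% of 276 reads without dTAG13 and at 14.4% of 201 and 15.4% of 306 reads after it. Group means were 43.1% ± 1.00 and 14.9% ± 0.66 (SD, n = 2 each), which gave an adjusted p of 0.0299 in the quasi-binomial model. At each of these 3 sites the replicates of a group lay within 2.2 points of each other.

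The 3 calls did not hold in several other fits, while the changes stayed as large. Leaving out any 1 library ended all of them, with adjusted p from 0.0677 to 0.139 for Arhgap11a, from 0.0600 to 0.139 for Knstrn and from 0.177 to 0.235 for Smc2, and in each such fit 0 of all sites passed. The change on summed reads in these fits was −63.6 to −66.4 points for Arhgap11a, −61.9 to −62.7 for Knstrn and −27.4 to −28.9 for Smc2. When sites listed in 3 libraries were tested as well, the adjusted p became 0.115 for Arhgap11a and Knstrn and 0.146 for Smc2. The 3 sites passed in limma on the log2 odds and in edgeR on the A and G reads as well.

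The other 5 tested sites did not pass. Tpx2, a spindle assembly factor that activates Aurora A, had 19.3% and 23.8% at chr2:152709211 without dTAG13 and 14.7% and 14.4% with it (unadjusted p of the model 0.0195, adjusted 0.348). Both dTAG13 values were below both untreated ones, but by a few points. A second Arhgap11a site, 112 bases from the first at chr2:113664030, had 49.7% and 13.6% without and 36.9% and 51.2% with dTAG13, so the untreated libraries lay 36.1 points apart, further than the group means, which differed by 12.4 points. Aurka, which encodes the centrosomal Aurora A kinase, had 11.2% and 10.9% at chr2:172204826 without dTAG13, and 29.0% and 12.9% with it. Cdk1 had 17.4% and 20.7% against 20.5% and 19.8% at chr10:69188680, and the condensin subunit gene Ncapg 11.6% and 11.7% against 12.8% and 10.3% at chr5:45851157. At an unadjusted p under 0.05 in the quasi-binomial model, 4 of the 8 member sites were lower and 0 higher. Of all sites tested, in and outside genes, 5.95% were lower and 3.4% higher. Of 8 sites tested in the other mitosis genes, 1 passed, lower with dTAG13. At an unadjusted p under 0.05 in the same model, 4 of these 8 were lower and 1 higher. Falling sites were thus not particular to the members.

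**Figure D1:**
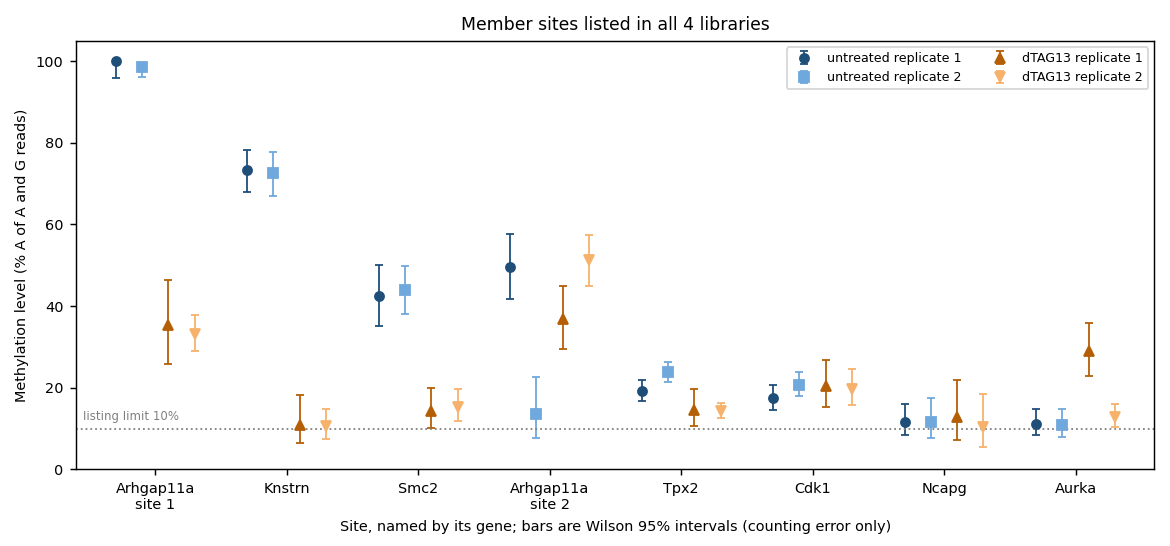
Methylation level, in percent of A among A and G reads, at the 8 member sites listed in all 4 libraries; points are libraries, bars Wilson 95% intervals for counting error, and the dotted line the listing limit of 10%. The first Arhgap11a site falls from about 99.3% to 34.3%, Knstrn from 73.0% to 10.8% and Smc2 from 43.1% to 14.9%, whereas the groups overlap at the second Arhgap11a site.

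Most listed sites cannot be followed this way, because they appear in a single table. The 4 libraries together listed 6063 distinct sites in the 48 genes, of which 5463 (90.1%) were in 1 library, 544 (8.97%) in 2, 48 (0.79%) in 3 and 8 (0.13%) in all 4. Over all genes 91.4% were in 1 library. The untreated pair shared 204 member sites, in 42 genes, the dTAG13 pair 89, in 32 genes, and the 4 pairs of an untreated with a dTAG13 library 100 to 120. The order of the pairs was the same over all genes. There the untreated pair shared 25086 sites, the mixed pairs 12953 to 14168 and the dTAG13 pair 11156. Of the 204 member sites shared by the untreated pair, 164 were listed in neither dTAG13 library, 32 in 1 and 8 in both. Of the 89 shared by the dTAG13 pair, 65 were in neither untreated library.

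The share of untreated sites that were listed again was larger for the other untreated library than for either dTAG13 library. Of the 1614 member sites with at least 50 reads in the first untreated library, 11.5% (Wilson 95% interval 10.1% to 13.2%) were listed in the second, against 6.69% (5.57% to 8.02%) and 5.95% (4.90% to 7.21%) in the dTAG13 libraries. From the second untreated library, 12.1% of 1534 were listed in the first and 6.13% and 7.17% in the dTAG13 libraries. The recovery with dTAG13 was thus 0.55 times that between untreated libraries, and 0.56 times over all genes. For sites at 40% or more it was 0.37 times among the members and 0.30 times over all genes. The dTAG13 tables are shorter, and their pair shared 89 of its 1329 and 1524 member sites, fewer than the 100 to 120 of the mixed pairs. Recurrence was thus low between the dTAG13 libraries too. Intervals cover counting error only and treat sites as independent, which sites of the same gene may not be. Reads may also not be independent molecules, and with 1 untreated pair the difference has no test.

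The sites measured most firmly before treatment were largely missing from the dTAG13 tables. Taking sites with at least 200 reads in both untreated libraries, a mean level of at least 30% and at most 20 points between the replicates, a rule set after the values were seen, left 11 sites in 9 genes. Of these 9 were listed in neither dTAG13 library, 1 in 1 and 1 in both. The same rule applied to the dTAG13 pair, whose tables list fewer sites, found 0 sites. With the listing limit of 15 reads in place of 200, the untreated pair had 34 such sites, 29 of them in neither dTAG13 library, and the dTAG13 pair 13, of which 8 were in neither untreated library. As the sites were selected on their untreated values, this is a description and no test. These counts were made for the members only, and whether sites of other genes differ under this rule was not tested. A class of highly methylated sites shared by the untreated pair is described further below. Of that class, 84.6% in the members and 85.8% over all genes were listed in neither dTAG13 library.

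Cenpa, which encodes the histone H3 variant that marks centromeres, held a pair of such sites, and neither was listed with dTAG13. Its site at chr5:30831548 was methylated in 58.1% of 1442 and 52.7% of 1894 untreated reads. A second, 390 bases downstream at chr5:30831938, stood at 62.8% of 304 and 80.8% of 261 reads. Aurka also had a pair: chr2:172198211 at 41.7% of 1444 and 40.8% of 1327 reads, and chr2:172198325 at 63.7% of 573 and 74.3% of 460 reads. Both were absent from the dTAG13 tables, where that gene had 27 and 28 listed sites in all, against 27 and 22 before.

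Cdk1, the central mitotic kinase gene, had the deepest of these sites, chr10:69174217, with 39.5% of 3513 and 43.9% of 5120 untreated reads and no entry with dTAG13. Bub3, a checkpoint protein gene, had 37.6% of 2694 and 38.1% of 2560 reads at chr7:131172698, and the topoisomerase gene Top2a 39.8% of 2413 and 31.1% of 3175 reads at chr11:98883906. These also had no entry with dTAG13. The same held for Tpx2 at chr2:152735771, with 39.7% of 242 and 53.2% of 1020 reads, and for Kif2c, a microtubule-depolymerising kinesin gene, at chr4:117017165, with 29.6% of 405 and 45.3% of 1025 reads. Ccnb2, encoding cyclin B2, was the exception: chr9:70315193 had 58.3% of 895 and 62.1% of 494 reads without dTAG13 and 55.6% of 513 reads in the second dTAG13 library, and was unlisted in the first. One site thus stayed near its untreated level in 1 dTAG13 library while the Knstrn site fell in both.

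**Figure D2:**
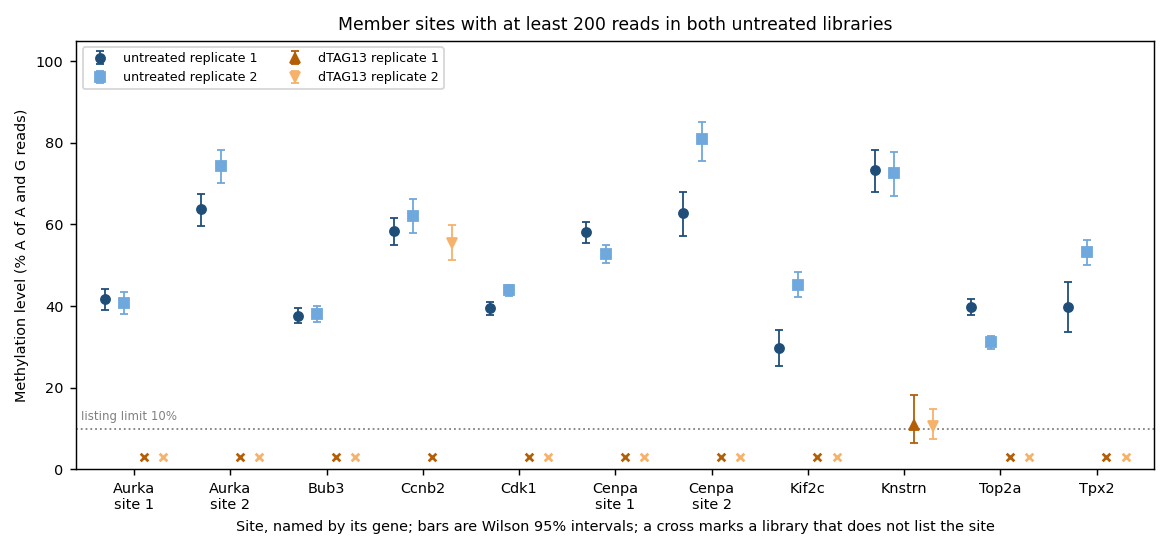
Methylation level in percent at the 11 member sites with at least 200 reads in both untreated libraries, a mean of at least 30% and replicates within 20 points; points are libraries, bars Wilson 95% intervals, and crosses mark libraries that do not list the site. All but the Ccnb2 and Knstrn sites have crosses for both dTAG13 libraries.

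Highly methylated sites shared by the untreated pair were found in 27 of the 48 genes: 52 sites had a mean level of 40% or more, of which 44 were listed in neither dTAG13 library, 5 in 1 and 3 in both. The dTAG13 pair shared 16 such sites, in 15 genes, and 13 of them were likewise listed in neither untreated library. Absence from the other group's tables was thus common in both directions, 84.6% of the 52 and 81.3% of the 16, and over all genes it was 85.8% of 9150 and 78.3% of 2306 sites of this class. Arhgap11a, Cenpf, Mki67 and Tpx2 had 4 of the 52 each. Aspm, a spindle pole gene of neural progenitors, had 5, but each of these had its untreated replicates more than 20 points apart, and 2 were listed again with dTAG13, at 31.3% of 16 reads and 24.6% of 65 reads in 1 library each. Mki67 encodes the proliferation marker Ki-67, which coats mitotic chromosomes. Its site at chr7:135291703 was read as A in 99.2% of 257 and 98.3% of 59 untreated reads, and its site at chr7:135309210 in 97.4% of 38 and 100% of 22. Neither was listed with dTAG13. Cenpf, a large kinetochore protein gene, had 71.8% of 163 and 57.7% of 390 reads at chr1:189374739 and 66.4% of 143 and 89.1% of 147 at chr1:189389186, and 0 of its 4 sites was listed with dTAG13. In Smc2, chr4:52486708 lies 29 bases from the tested site and had 47.1% of 157 and 50.9% of 173 reads without dTAG13, with no entry after it.

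Agreement between replicates was often poor at this end of the scale. The median gap between the untreated libraries was 7.63 points over the 204 shared sites but 30.1 points over the 52, and 20 of the 52, in 11 genes, lay within 20 points. Incenp at chr19:9850040 had 14.2% of 409 reads in the first untreated library and 78.4% of 278 in the second. Ncapd2 at chr6:125163148 had 81.3% of 171 and 11.3% of 168, Nusap1 at chr2:119480220 75.4% of 167 and 11.9% of 159, and Mad2l1, encoding the checkpoint protein MAD2, at chr6:66516923 20.7% of 381 and 63.7% of 350. None of these was listed with dTAG13. For Aurkb, encoding the kinase of the passenger complex, chr11:68941236 was high in both, at 88.5% of 338 and 41.1% of 107 reads, and unlisted with dTAG13. In Ccnb1, Kif11, Kif20b, Kif23, Knl1, Nuf2, Prc1 and Smc4 the single shared site of this class also had its replicates more than 20 points apart. The Nuf2 site, chr1:169341096, is 1 of the few seen again: 38.9% of 36 and 95.0% of 20 reads without dTAG13, and 92.0% of 88 reads in the second dTAG13 library. Of the 20 that agreed, 16 were listed in neither dTAG13 library. Besides those described above they include Arhgap11a at chr2:113678420, with 80.4% of 56 and 75.4% of 142 reads, Birc5, the survivin gene, at chr11:117746559, with 65% of 40 and 56.2% of 16, and Knstrn at chr2:118666373, with 35.3% of 156 and 47.7% of 298. These 3 were unlisted with dTAG13.

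Pooled over genes, sites shared by untreated libraries were more often near the downstream end of the listed stretch of their gene. Within 1000 bases of the gene's last listed site were 38.8% of 152 sites at 10% to 40%, and 30.8% of the 52. Of the 5463 sites seen once it was 22.8%. The share was 31.5% for the 89 sites of the dTAG13 pair, and no exon or UTR was assigned. The listed stretch ran from 4286 bases in Cdc20 to 91991 in Ckap5, so 1000 bases is a larger part of some genes. Which genes supply the shared sites may therefore enter these shares, which was not tested. No such count was made over all genes.

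Listed sites per library, the second comparison, were fewer with dTAG13 among these genes as they were over all genes. The members had 1937 ± 33.9 sites without and 1427 ± 138 with dTAG13 (SD, n = 2 each), a ratio of 0.74 beside 0.71 over all genes and 0.68 over the 108 other mitosis genes with listed sites. In 28 of the 48 genes (58.3%) both dTAG13 libraries had fewer sites than both untreated ones, and in 0 both had more. Of 107 other mitosis genes 70 had fewer and 4 more. Over the 12449 genes with at least 10 listed sites, 46.4% had fewer and 4.51% more by the same count. Reads summed over listed sites came to 52195855 and 54905380 without dTAG13 and to 30102136 and 45966738 with it. This sum falls when fewer sites are listed, so it does not measure depth by itself. The median reads per listed site over the whole map, in and outside genes, were 78 and 80 without and 75 and 91 with dTAG13. At member sites the median was lower in both dTAG13 libraries, with 124 and 134 without and 93 and 116 with dTAG13. At the sites of all genes it was 96 and 99 without and 87 and 112 with dTAG13. Median gene coverage over all genes was 99.2 and 103 without and 82.4 and 111 with it. The part of depth in the count was not tested.

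The smaller number was in weakly methylated sites. Untreated, members had 1493 and 1473 sites between 10% and 40%, against 897 and 1034 after dTAG13, a ratio of 0.65. Between 40% and 90% they had 337 and 318 without and 280 and 331 with it (0.93), and at 90% or more 131 and 122 without and 152 and 159 with it (1.23). Over all genes the corresponding ratios were 0.68, 0.71 and 0.85. The number of member sites at 40% or more was thus 1.02 times the untreated number, against 0.77 times over all genes. The median level of a listed member site was 21.8% and 21.3% without and 27.8% and 26.6% with dTAG13. Over all genes it was higher before treatment, at 28.2% and 27.0% without and 29.3% and 29.3% with dTAG13. No test was made of these sums. The sites at 90% or more rested on few reads, with medians of 33 and 27 without and 30 and 35 with dTAG13, against 152, 167, 128 and 170 at 10% to 40%. Of the sites at exactly 100%, 73 and 72 without and 95 and 94 with dTAG13, only 6, 4, 13 and 8 were listed in any other library.

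**Figure D3:**
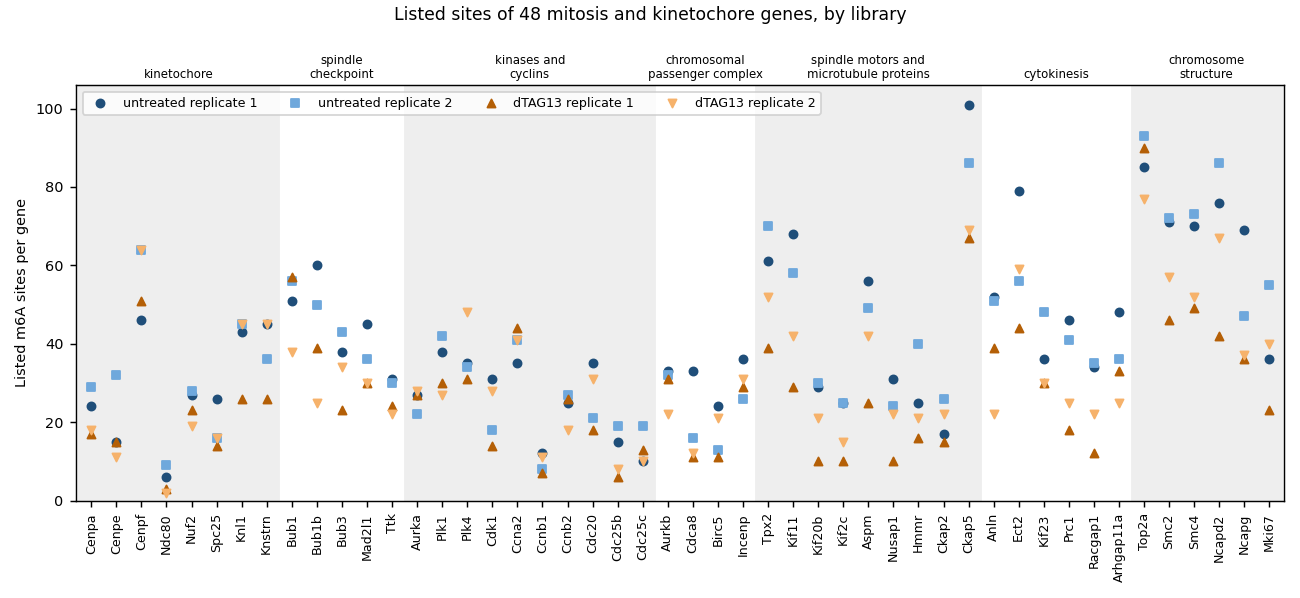
Listed m6A sites per gene for the 48 members, grouped by role; each point is 1 library, circles and squares untreated, triangles dTAG13. Both dTAG13 points lie below both untreated points in 28 genes and above them in 0.

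By role, the ratio of sites was lowest for cytokinesis genes (0.64) and spindle motors and microtubule proteins (0.64), and highest for kinases, cyclins and their regulators (0.91). In 8 of 9 spindle motor and microtubule genes, 5 of 6 cytokinesis genes, 4 of 5 checkpoint genes and 4 of 6 chromosome structure genes the groups did not overlap. The same was seen in 3 of 8 kinetochore genes, 2 of 4 chromosomal passenger genes and 2 of 10 kinase and cyclin genes. In all of these both dTAG13 libraries were lower, where 46.4% of all genes were lower and 4.51% higher. Whether the role groups differ was not tested.

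Top2a, with 85, 93, 90 and 77 sites in the first and second untreated and the first and second dTAG13 library, and Ckap5, encoding a microtubule polymerase, with 101, 86, 67 and 69, had the most sites. The condensin genes Ncapd2 (76, 86, 42 and 67), Smc4 (70, 73, 49 and 52) and Smc2 (71, 72, 46 and 57) followed. In Top2a the groups overlap, while in the others both dTAG13 libraries were lower. Fewest were listed in Ndc80, the gene of the microtubule-binding kinetochore subunit, with 6, 9, 3 and 2. Its ratio of 0.33 was the lowest of the 48, before Cdc25b, a CDK-activating phosphatase gene (15, 19, 6 and 8; 0.41), and Cdca8, encoding borealin of the chromosomal passenger complex (33, 16, 11 and 12; 0.47). The highest ratios were those of Plk4, the centriole duplication kinase gene (35, 34, 31 and 48; 1.14), Aurka (27, 22, 27 and 28; 1.12) and Ccna2, encoding cyclin A2 (35, 41, 44 and 41; 1.12). In these 3 genes the groups overlap.

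Relative to the listed genic sites of its library, no member passed in edgeR's quasi-likelihood test (0 of 48, smallest adjusted p 0.268). Over all genes 58 of 12449 passed (0.466%), and DESeq2 called 0 genes, with 362 of all genes at an unadjusted p under 0.05. At an unadjusted p under 0.05, 5 members were relatively higher and 0 lower, where 5.76% of all genes were higher and 5.76% lower. The 5 were Ccna2 (log2 change 0.65 ± 0.26 SE), Plk4 (0.67 ± 0.27), Cenpf (0.55 ± 0.22), Aurka (0.65 ± 0.33) and Top2a (0.40 ± 0.18), with adjusted p from 0.268 to 0.427. In DESeq2 0 members were under 0.05 unadjusted. With all libraries given equal size, which keeps the overall fall in, 0 members passed and 13 of 48 (27.1%) were lower at an unadjusted p under 0.05, beside 20.2% of all genes.

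Adenosines left unconverted for other reasons are also read as A, so the conversion of each gene, as deposited, was compared too. The median unconverted share of the members was 3.95% and 3.45% without and 3.0% and 3.33% with dTAG13, and 4.15%, 3.78%, 3.13% and 3.26% over all genes. Both dTAG13 libraries were lower in 19 of 48 members and higher in 4, where 40.9% of all genes were lower and 6.05% higher. With limma on its log2 odds 0 of 48 members and 0% of 12520 genes passed. At an unadjusted p under 0.05, 2 members were lower, Birc5 (5.39% and 4.67% without, 2.50% and 2.81% with dTAG13) and Arhgap11a (3.77% and 5.25%, then 2.52% and 2.44%), and 0 higher, against 11.2% lower and 1.06% higher of all genes. Its part in the number of sites was not tested.

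The third comparison concerned the coverage of the genes, a deposited value per gene and library that is not a count of RNA molecules. It was compared on the log2 scale relative to the median gene of each library. No member passed in limma (0 of 48), nor did any gene (0% of 12520). At an unadjusted p under 0.05, 11 members were lower and 0 higher, where 8.34% of all genes were lower and 4.4% higher. The log2 change was below 0 in 40 of 48 members, beside 56.7% of all genes, with a median of −0.26 beside −0.07, and a range from −1.15 to 0.33. The median was −0.31 for the first dTAG13 library alone and −0.25 for the second. Among 107 other mitosis genes 69 were below 0, with a median of −0.15. The members were covered more deeply than most genes, with untreated medians of 176 and 209 beside 99.2 and 103 over all genes. The background was not matched for coverage. In organoids sampled in bulk, fewer dividing cells and less RNA per cell cannot be told apart.

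Cdc20, the activator of the anaphase-promoting complex, had the smallest p. Its coverage was 281 and 303 in the untreated libraries, against 97.2 and 159 in the treated ones, so both treated libraries were well below both untreated ones. The log2 change was −1.15 ± 0.21 (SE; unadjusted p of limma 0.00174, adjusted 0.363). Cdca8 had 270 and 388 without and 111 and 188 with dTAG13 (−1.08 ± 0.26), Ccna2 427 and 428 against 169 and 318 (−0.80 ± 0.24), and Nusap1, a microtubule-bundling protein gene, 317 and 287 against 154 and 177 (−0.79 ± 0.21). In each the groups did not overlap.

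Bub1b, encoding the checkpoint protein BubR1, had 184 and 234 without and 106 and 133 with dTAG13 (−0.73 ± 0.21), and its partner gene Bub3 595 and 564 against 315 and 469 (−0.51 ± 0.20). The mitotic kinase gene Plk1 had a change of −0.64 ± 0.22, with treated coverage of 132 and 221, Ncapd2 192 and 224 against 110 and 139 (−0.66 ± 0.20), and Top2a 370 and 392 against 198 and 284 (−0.60 ± 0.20). The spindle genes Hmmr and Ckap2 had changes of −0.59 ± 0.20 and −0.52 ± 0.21. The adjusted p of these members in limma lay between 0.363 and 0.392, so none is a call. Top2a and Ccna2 had lower coverage with dTAG13 and, relative to their library, more listed sites, both short of the adjusted threshold.

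By role, all 10 kinase, cyclin and regulator genes, all 9 spindle motor and microtubule genes and all 5 checkpoint genes had a change below 0, as did 5 of 6 chromosome structure genes, 4 of 6 cytokinesis genes, 5 of 8 kinetochore genes and 2 of 4 passenger complex genes. Over all genes 56.7% had a change below 0. Cenpe, the kinetochore kinesin gene, had the highest change of the members, 0.33, with 50.9 and 66.5 without and 66.4 and 72.1 with dTAG13. Incenp, the scaffold of the passenger complex, had 137 and 132 against 125 and 189 (0.28). After scaling to the median gene, both dTAG13 libraries were lower in 27 of 48 members and higher in 2, where 29.2% of all genes were lower and 17.0% higher. Coverage as deposited was lower in 25 and higher in 0, where 28.1% of all genes were lower and 10.1% higher. The counts depend in part on scaling: with quantile normalization 33 of 48 were below 0 (median −0.16), beside 51.4% of all genes, and 6 (12.5%) were lower at an unadjusted p under 0.05, beside 4.43%. Leaving out 1 library at a time leaves a single library in that group, so only sizes are given. The median change of the members was −0.28 and −0.23 without the first and second untreated library. Without the first and second dTAG13 library it was −0.25 and −0.31. Between 38 and 42 of 48 were below 0 in these fits. The number of members lower at an unadjusted p under 0.05 in limma was smaller in each of them. For the marker lists, coverage was summed as deposited and, unlike the log2 changes, was not scaled to the median gene. The summed coverage of the eye field list was 4398 and 5512 without against 3114 and 4291 with dTAG13. Without Sfrp2, its most covered gene, the list summed to 2613 and 3105 against 1940 and 2798, where the groups overlap. In 3 of the 8 genes of this list both dTAG13 libraries were lower. The pluripotency list summed to 918 and 937 against 658 and 866, and without Dppa5a to 392 and 452 against 375 and 422, which overlap too. The neuronal genes listed in every library, Tubb3 and Stmn2, summed to 278 and 267 against 185 and 283. Sox17, the mesoderm and endoderm gene listed in every library, had 45.8 and 26 against 29.3 and 69.8, and Krt18, that of the lens and surface ectoderm list, 75.6 and 60.6 against 70.3 and 48.8, all with groups that overlap. The part of cell makeup in the members' coverage was not tested.

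**Figure D4:**
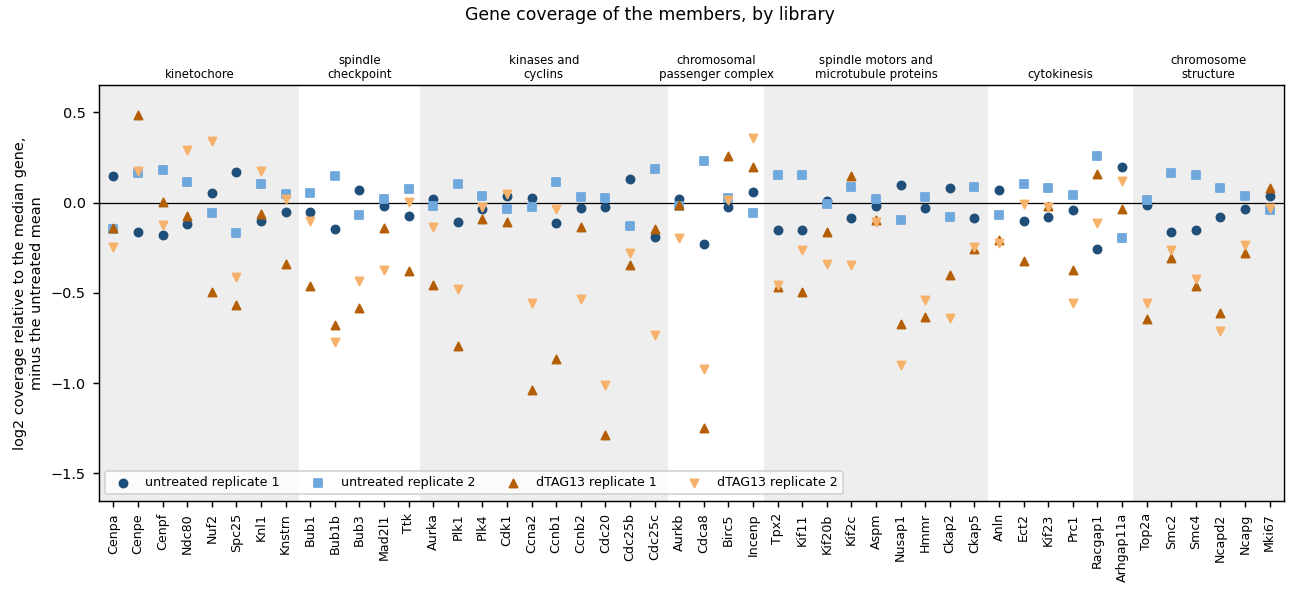
Coverage of each member on the log2 scale relative to the median gene of its library, minus the mean of the untreated libraries; each point is 1 library and genes are grouped by role. Both dTAG13 points lie below both untreated points in 27 genes, with Cdc20 and Cdca8 lowest, and above them in 2.

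Since lower coverage and fewer listed sites went together in part of the list, the count was repeated in the 21 members whose relative coverage was not lower in both dTAG13 libraries, an alternative chosen after the data were seen. Their ratio of listed sites was 0.78, beside 0.74 for all 48, which include these 21. The part of coverage in the number of sites was not tested.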

How the data were processed

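GLORI site tables of 4 libraries, 2 untreated and 2 with dTAG13, were used as deposited, 1 per library. Per the file headers, the authors give counts of A and G reads and of A reads per site, the level as a fraction of A, the conversion rate of the gene as a fraction, a coverage signal per gene and their own p-value and adjusted p-value. These counts and the coverage are not normalised, and the exact definition of the coverage is not given in the sources used here, nor are the aligner, the caller and the treatment of duplicates. The submitters' processing notes name mm10, but only 8.43% of 6727 member rows lay inside the GRCm38 interval of their gene and contig names fit GRCm39, so site coordinates are printed as listed and no site sequence, exon or UTR was assigned.

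Groups came from the sample titles. Sites per gene were tested with edgeR 4.0.16 (library size: listed genic sites; genes with at least 10 sites), site levels with a quasi-binomial model moderated by limma 3.58.1 (at least 20 reads in each of 4 libraries), coverage and the log2 odds of the unconverted share with limma, all over the whole table with Benjamini-Hochberg adjustment at 0.05, two-sided. DESeq2 1.42.0 was an alternative for sites per gene. Scripts were tested on simulated data. The members, role groups, the list of 109 other mitosis genes (Ube2s had no site) and the marker lists were chosen with earlier results of these data known. Genes are named with values if they had a site in all 4 libraries or one shared by the untreated pair at 40% or more, an unadjusted p under 0.05, or the most, fewest or most changed sites.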

Additional observations from a re-analysis of the deposited data

How the results depend on the processing

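The 3 member site calls (53 over all sites) became 0 (0 over all) when sites listed in at least 3 libraries were tested, when the replicate number was added as a block, and in every fit that left out 1 library (range 0 to 0, likewise over all sites). Same-numbered libraries did not deviate together (correlation 0.00227 for coverage), so they were not treated as pairs. Fisher's exact test on summed reads, which ignores the spread between replicates, called 5 member sites and 531 in all. The count of members called for sites per gene, coverage or conversion stayed at 0 under every alternative run, while for sites per gene the 58 genes called overall became 0 with equal library sizes, 0 with DESeq2, 8 and 0 with sites of at least 20% and 40%, 62 with the replicate block, and 4 to 44 without 1 library. Coverage calls over all genes rose from 0 to 15 without centring. The ratio of member sites of 0.74 became 0.88 at a level of at least 20% and 1.02 at 40%, and the recovery ratio of 0.55 became 0.37 at 40%. The cause of these shifts was not tested. With 2 libraries a group, a listing limit of 10% and a median of 93 to 134 reads per member site, complete losses and small changes are outside what these tables can test.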
